A study of Mus musculus with 12 samples.

Results

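The cytochrome P450 genes of families 1 to 4 were described in whole-tissue RNA of the mouse proximal thoracic aorta. Members were all genes in the expression table whose name begins with Cyp1, Cyp2, Cyp3 or Cyp4 followed directly by a lower-case letter, and 6 names marked as pseudogenes (-ps) were left out. This gave 53 of 30130 genes: 2 of family 1, 27 of family 2, 6 of family 3 and 18 of family 4. RNA was sequenced from 7 chronic proximal thoracic aortic aneurysms (cPTAA, libraries 2, 3, 4, 6, 7, 9 and 12) and 5 sham-operated proximal thoracic aortas (libraries 1, 5, 8, 10 and 11). All mice were male and of the strain written as C56BL/6J. The cPTAA mice had received elastase, which degrades elastic fibres, around the aorta, and BAPN, an inhibitor of the lysyl oxidases that cross-link elastin and collagen. Sham mice had surgery and normal water. Elastase and BAPN could therefore be compared with sham only together, and age and time after surgery are not given in the sources used here. The labels number the samples without saying which animal each came from, and p-values therefore reflect variation among the sequenced samples, part of which may be technical.

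Cytochrome P450 enzymes are haem proteins of the endoplasmic reticulum that insert an oxygen atom into their substrate, using electrons passed on by the reductase Por and by cytochrome b5. Members of families 1 to 3 are best known for the oxidation of drugs, environmental chemicals and hormones, with the liver as their main site. In vessels, some family 2 enzymes turn arachidonic acid into epoxides that relax smooth muscle, whereas family 4 enzymes hydroxylate the end of fatty acids, leukotrienes and prostaglandins.

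Library totals ranged from 14078885 to 17493428 recovered reads. Values are normalised read counts, in which 1 read was worth 0.863 to 1.16 units. Smooth muscle markers summed to 68126 to 267308 in cPTAA and 215537 to 295178 in sham, and endothelial markers to 7790 to 14369 and 12197 to 18515, so both cell types of the labelled tissue were present in every library. Of these, 4 of 10 smooth muscle markers (median log2 fold change -0.72) and 6 of 10 endothelial markers (median -0.53) were lower in cPTAA, and 0 of either were higher (limma, also 0 at an unadjusted p under 0.05). Markers of other tissues differed as well. Brown adipocyte markers summed to 4811 to 55372 in cPTAA (median 19048) and 46388 to 132432 in sham (median 113707), and 14 of 15 were lower in cPTAA. White adipocyte markers summed to 80498 to 163215 in cPTAA and 129673 to 277603 in sham, and 8 of 12 were lower (median log2 fold change -1.30), among them Plin1, Adipoq and Lipe without overlap. The rest of that list did not pass: Lep (0.24 ± 0.38), Cfd (-0.24 ± 0.25), Retn (-0.58 ± 0.27) and Nnat (-1.12 ± 0.53, log2 differences ± SE). Macrophage markers summed to 38423 to 71726 in cPTAA and 7567 to 26918 in sham, and 11 of 13 were higher. The highest sham sum was that of sham 8, of which the marker Lyz2 made up 20798 (2234 to 5095 in the other sham libraries). Lung epithelium markers summed to 73662 in sham 8 and 6881 in sham 11, against 21.7 to 30.2 in sham 1, 5 and 10 and 124 to 644 in cPTAA. In cPTAA most of that sum came from the markers Napsa (97.1 to 296) and Epcam (9.66 to 245), whereas Sftpa1 and Nkx2-1 were at 0. Cardiomyocyte markers summed to 21449, 26261 and 142090 in cPTAA 6, 7 and 9, against 1610 to 7957 in the other libraries. In whole tissue, fewer cells of a type and less RNA per cell cannot be told apart.

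Of the 53 members, 27 reached a value of 1 in at least 5 libraries and were tested. A single read met that value in sham 1, 8, 10 and 11 (1.02 to 1.16 units). In sham 5 (0.974) and all cPTAA libraries (0.863 to 0.986) more than 1 read was needed, which matters for members with few reads. Cyp4f18, Cyp4f16 and Cyp1b1 rose in cPTAA, and Cyp2b10, Cyp1a1, Cyp2e1, Cyp4b1, Cyp2u1, Cyp4f13, Cyp2d22 and Cyp2j6 fell. The other 16 tested members did not pass the threshold (limma adjusted p under 0.05). The 3 higher members are 11.1% of those tested, against 12.9% of all 21415 genes tested, and the 8 lower ones are 29.6%, against 11.1% of all genes tested. Groups did not overlap for 6 members, 2 higher (Cyp4f18 and Cyp4f16) and 4 lower (Cyp2b10, Cyp1a1, Cyp4f13 and Cyp2j6), whereas 13% of all genes tested were without overlap in either direction. The median log2 fold change was -0.52 over the 27 tested members and -0.05 over all genes tested, and 22 of the 27 were negative. Scaling by library totals moved the median of all genes to 0.06, with 3359 genes higher and 1830 lower in place of 2754 and 2374, and left 3 members higher and 6 lower (Cyp2d22 and Cyp2j6 lost their calls). Both family 1 genes passed, 1 in each direction. In family 2, 5 of 14 tested genes were lower and 0 higher (2 of them, Cyp2d22 and Cyp2j6, by small margins described with their values). In family 4, 2 of 10 were higher and 2 lower, and the 1 tested gene of family 3 did not pass. No family 2 gene was higher at an unadjusted p under 0.05 either, nor by edgeR or DESeq2 on the recovered reads.

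**Figure D1:**
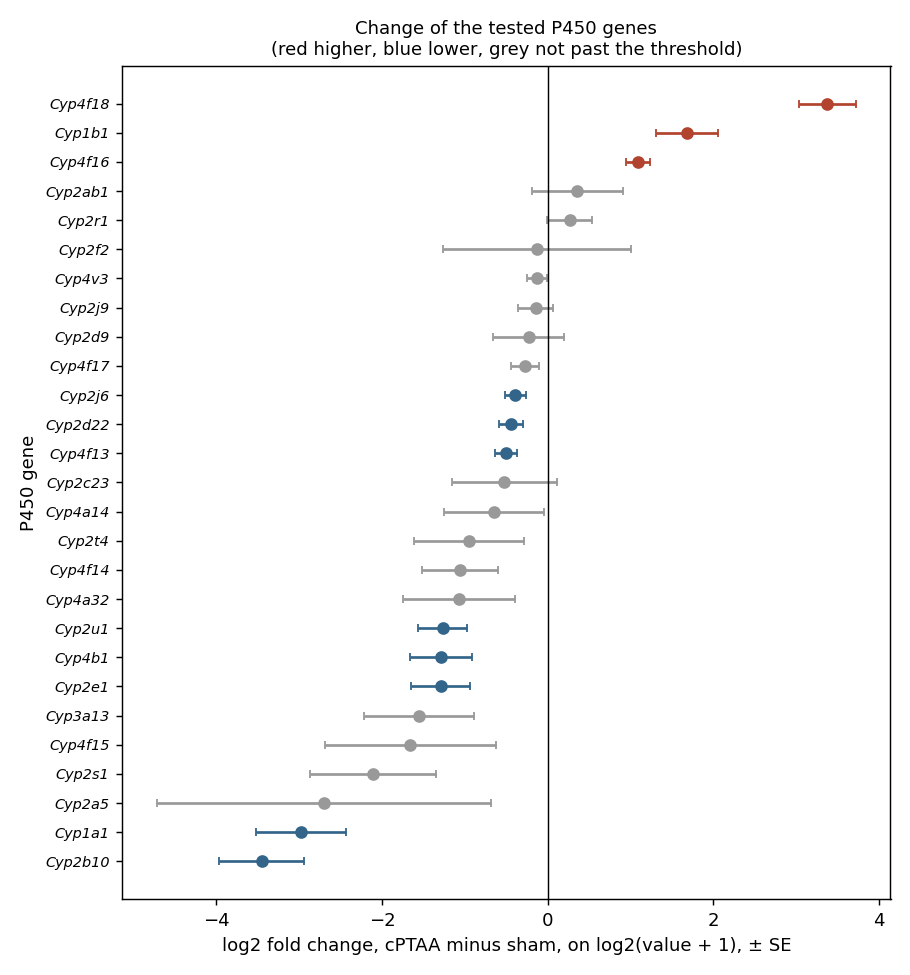
Log2 fold change of each of the 27 tested P450 genes, cPTAA minus sham, on the log2(value + 1) scale, with bars of 1 SE. Red points are higher, blue points lower and grey points did not pass the threshold. Cyp2b10 (-3.45) and Cyp4f18 (3.38) lie at the ends among those that passed, and the widest bars belong to Cyp2a5 and Cyp2f2.

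Levels can be compared between genes only per length, so values were divided by exon length in kb for the 52 members with a known length. On this scale Cyp2e1, the ethanol-inducible P450 of liver that adipose tissue also expresses, had the highest median in both groups, with 2023 per kb in cPTAA and 5239 in sham. In cPTAA it was followed by Cyp1b1 (median 977 per kb), Cyp2f2 (349), Cyp2d22 (183), Cyp4b1 (171), Cyp4f18 (138), Cyp4v3 (129) and Cyp4f16 (118). In sham the order was Cyp2b10 (median 623 per kb), Cyp4b1 (316), Cyp2d22 (260), Cyp1b1 (215), Cyp4v3 (135) and Cyp4f13 (120). Neighbours in these orders often had ranges that crossed: in cPTAA, Cyp2d22 ran from 163 to 204 per kb and Cyp4b1 from 112 to 270. The sum over members was 3576 to 7732 per kb in cPTAA and 7534 to 30830 in sham, and only cPTAA 12 and sham 10 crossed. Cyp1b1 made up 5.63% to 27.6% of that sum in cPTAA and 0.492% to 3.21% in sham, without overlap. A share also depends on the sum, and the level of Cyp1b1 itself did overlap (242 to 1354 per kb in cPTAA, 152 to 354 in sham). Cyp2e1 made up 34.3% to 65.4% in cPTAA. In sham it made up 10.2% in sham 8 and 50.2% to 86.6% in the others. In sham 8 the largest part was Cyp2f2, with 58.6%, followed by Cyp2a5, with 19.6%.

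**Figure D2:**
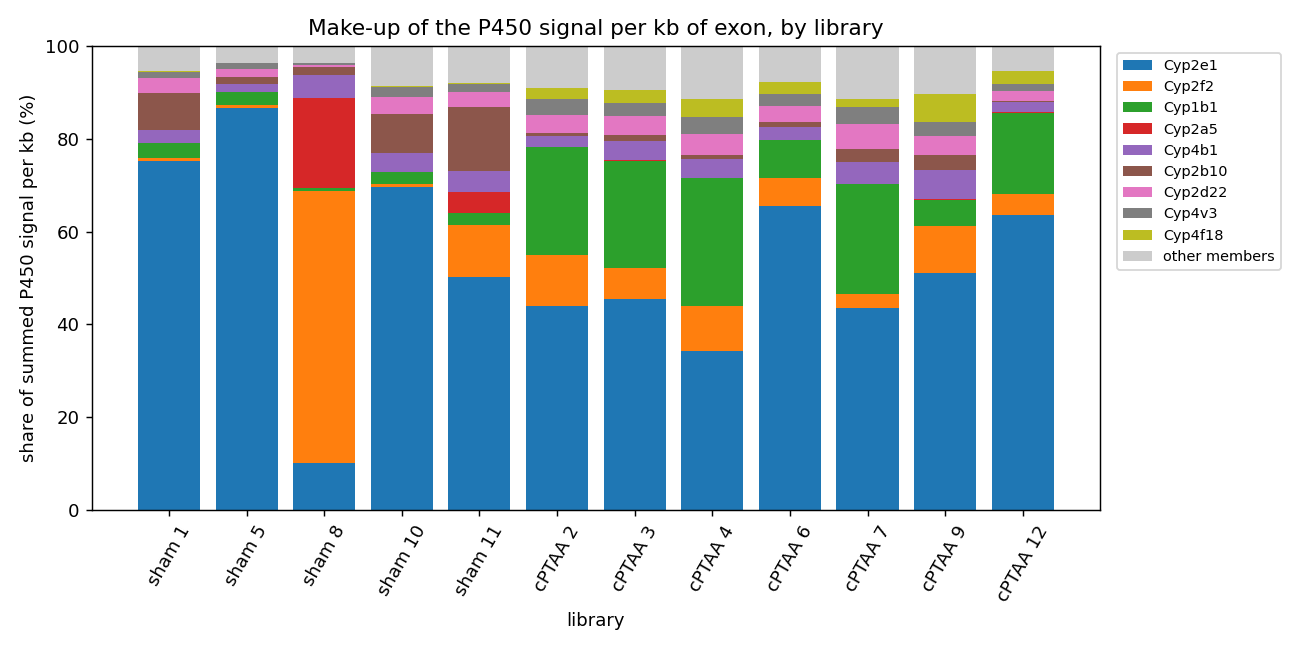
Share of each P450 gene, in percent, in the summed per-kb signal of the members, with 1 stacked bar for each library. The Cyp1b1 segment is larger in the 7 cPTAA bars (5.63% to 27.6%) than in the 5 sham bars (at most 3.21%), and sham 8 differs from all others in its Cyp2f2 and Cyp2a5 segments. A share also depends on the summed signal, and the level of Cyp1b1 per kb overlapped between groups.

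The 2 members of family 1 are both known targets of the aryl hydrocarbon receptor, a ligand-activated transcription factor, and they moved in opposite directions. The bases before their start sites are shown because the receptor's core site, GCGTG on either strand, can be looked for in them. Sequences are from RefSeq on the build GRCm38.p6, which is older than the files' build, and cover 250 bases 5′ to 3′ on the gene's strand up to the start site. Capitals mark the core site. The Cyp1a1 stretch is chr9:57697363-57697612 (+) and the Cyp1b1 stretch is chr17:79715062-79715311 (-).
Cyp1a1: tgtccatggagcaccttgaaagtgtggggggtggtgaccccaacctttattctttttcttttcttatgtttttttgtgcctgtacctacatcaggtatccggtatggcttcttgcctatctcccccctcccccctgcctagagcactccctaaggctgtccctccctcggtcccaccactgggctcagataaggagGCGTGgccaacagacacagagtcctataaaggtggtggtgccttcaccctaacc
Cyp1b1: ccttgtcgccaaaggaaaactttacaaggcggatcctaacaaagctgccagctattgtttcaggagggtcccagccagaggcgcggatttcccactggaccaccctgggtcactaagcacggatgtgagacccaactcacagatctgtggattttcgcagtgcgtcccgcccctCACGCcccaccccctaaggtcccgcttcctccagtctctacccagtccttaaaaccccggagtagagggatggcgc
Each held the core site once, beginning 54 bases before the Cyp1a1 start (GCGTG) and 76 bases before the Cyp1b1 start (CACGC). Cyp1a1 also held a TATAAA box, beginning 30 bases before its start. Among 32851 promoters of the same length, 28.2% held GCGTG on either strand, as did 10 of the 41 members with a promoter in the table. A match is a description of the letters only.

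Cyp1a1 is the enzyme most used as a readout of aryl hydrocarbon receptor activity. Its value was 161, 171, 102, 536 and 265 in sham 1, 5, 8, 10 and 11. In cPTAA the lowest was 9.23, the median 21.6 and the highest 71.5. Every cPTAA library lay below every sham library, and sham 10 was the highest. The difference was -2.97 ± 0.54 on the log2 scale (SE, adjusted p = 0.00106), which is 7.86-fold lower.

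Cyp1b1, which oxidises oestrogens, retinoids and polyunsaturated fatty acids and is known from fibroblasts and smooth muscle, went the other way. Its value was 1826, 2067, 885, 1114 and 1257 in sham 1, 5, 8, 10 and 11. The lowest cPTAA value was 1414, the median 5705 and the highest 7909. All cPTAA libraries other than cPTAA 9 lay above all sham libraries, and cPTAA 9 lay within the sham range. The difference was 1.68 ± 0.37 (adjusted p = 0.00403), which is 3.21-fold higher. cPTAA 9 was also the cPTAA library with the highest brown adipocyte and cardiomyocyte sums, and the part of those tissues in the result was not tested. Fibroblast markers summed to 63527 to 120331 in cPTAA and 29844 to 51664 in sham, and 6 of 10 were higher and 1 lower.

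Of the other genes of the aryl hydrocarbon receptor pathway, 2 of 10 tested rose and 1 fell, shares close to those over all genes tested (12.9% higher and 11.1% lower). The receptor gene Ahr was 382 ± 122 in cPTAA (SD, n = 7) and 221 ± 39.2 in sham (SD, n = 5), a log2 difference of 0.73 ± 0.24 (adjusted p = 0.0369). The partner Arnt2 rose by 2.07 ± 0.50 (adjusted p = 0.0072), whereas its relative Arnt, at -0.13 ± 0.15, did not pass. Tiparp, a target and repressor of the receptor, fell by 0.54 ± 0.18 (adjusted p = 0.0398). The repressor gene Ahrr (-0.46 ± 0.41) and the target Nqo1 (0.04 ± 0.26) did not pass. Aldh3a1 (-1.95 ± 0.70, adjusted p = 0.0571) and Ugt1a6a (0.99 ± 0.60, adjusted p = 0.258), also of this list, did not pass by limma. Aldh3a1 was 1245 in sham 8, 141 in sham 11 and at most 57.5 in the other sham libraries. By edgeR 2 genes of the list were lower. The call of Ahr was lost without any single one of cPTAA 2, 3, 4, 7 or 12 or sham 1, 5, 10 or 11. The call of Tiparp was lost without any single one of cPTAA 4, 6 or 7 or sham 1, 5, 10 or 11. Over their alternatives the adjusted p ran from 6.05e-05 to 0.797 for Ahr and from 0.00574 to 0.291 for Tiparp.

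Family 2 supplied 5 of the 8 lower members. Cyp2b10, a target of the xenobiotic receptor Nr1i3 in liver that is also found in lung and adipose tissue, had the largest fall among all members that passed. Its value was 1658, 397, 992, 1316 and 2236 in sham 1, 5, 8, 10 and 11. In cPTAA the lowest was 36.0, the median 124 and the highest 291. No cPTAA library reached the lowest sham library, sham 5. The difference was -3.45 ± 0.51 (adjusted p = 2.08e-04), which is 10.9-fold lower.

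Cyp2e1 was 15772, 24035, 6781, 11306 and 8424 in sham 1, 5, 8, 10 and 11. In cPTAA it ran from 2667 through a median of 4366 to 10615. The groups overlapped: cPTAA 6 and cPTAA 12 lay above the lowest sham library, sham 8. The difference was -1.29 ± 0.36 (adjusted p = 0.0171), which is 2.45-fold lower. Without sham 5, the highest library, it was -1.04 with an adjusted p of 0.0514, and over all alternatives the adjusted p ran from 3.66e-04 to 0.121.

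Cyp2u1, which hydroxylates arachidonic acid and other long-chain fatty acids, was 272, 177, 139, 273 and 348 in sham 1, 5, 8, 10 and 11. The cPTAA libraries ranged from 50.8 to 167, with a median of 88.0. Only cPTAA 7 and cPTAA 9 reached the lowest sham library, sham 8. The difference was -1.27 ± 0.30 (adjusted p = 0.00588).

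Cyp2d22, the most abundant Cyp2d gene here, and Cyp2j6, of the subfamily that makes arachidonic acid epoxides, showed small differences. Cyp2d22 was 1239, 840, 676, 1127 and 1015 in sham 1, 5, 8, 10 and 11, and 639 to 797 (median 715) in cPTAA. Sham 8 lay within the cPTAA range and the other sham libraries above it, and the difference was -0.45 ± 0.15 (adjusted p = 0.0387). Cyp2j6 was 403, 346, 343, 392 and 339 in sham 1, 5, 8, 10 and 11, and 241 to 331 (median 266) in cPTAA. All cPTAA libraries lay below all sham libraries, with cPTAA 9 close to sham 11, and the difference was -0.39 ± 0.12 (adjusted p = 0.034). Both calls were lost under 11 of 23 alternatives. For Cyp2d22 these included scaling by TMM or by library totals, no filter, and leaving out any single one of cPTAA 2, 3, 4 or 12 or sham 1, 10 or 11, and the adjusted p ran from 0.00304 to 0.886. For Cyp2j6 they included the same scalings, no filter, and leaving out any single one of cPTAA 2, 4 or 7 or sham 1, 5 or 10, and the adjusted p ran from 0.00224 to 0.728.

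Family 4 held the largest rise. Promoters of 3 Cyp4f genes are printed because Cyp4f16 and Cyp4f18 rose while Cyp4f13, which lies in the same chromosome 17 cluster as Cyp4f16, fell. Capitals mark GAGGAA on either strand, the PU box, a site bound by the myeloid factor PU.1. The stretches, from RefSeq on GRCm38.p6 as above, are chr8:72009627-72009876 (-) for Cyp4f18, chr17:32536307-32536556 (+) for Cyp4f16 and chr17:32947362-32947611 (-) for Cyp4f13.
Cyp4f18: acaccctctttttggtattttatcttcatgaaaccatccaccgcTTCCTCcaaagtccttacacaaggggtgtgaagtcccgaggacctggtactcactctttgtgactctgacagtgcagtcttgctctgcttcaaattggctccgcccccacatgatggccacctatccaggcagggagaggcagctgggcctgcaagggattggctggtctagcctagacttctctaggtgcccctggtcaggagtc
Cyp4f16: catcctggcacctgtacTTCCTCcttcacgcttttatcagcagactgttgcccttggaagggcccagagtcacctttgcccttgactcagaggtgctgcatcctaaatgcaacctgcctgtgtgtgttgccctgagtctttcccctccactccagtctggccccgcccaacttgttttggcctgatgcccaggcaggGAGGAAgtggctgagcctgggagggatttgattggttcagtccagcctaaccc
Cyp4f13: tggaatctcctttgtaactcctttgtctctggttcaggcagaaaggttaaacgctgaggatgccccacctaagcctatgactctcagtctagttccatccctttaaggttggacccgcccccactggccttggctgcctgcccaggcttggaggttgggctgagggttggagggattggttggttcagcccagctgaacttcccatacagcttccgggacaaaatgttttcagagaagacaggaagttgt
Cyp4f18 held TTCCTC, beginning 206 bases before its start. Cyp4f16 held TTCCTC at 233 and GAGGAA at 53 bases before its start, and Cyp4f13 held neither in this window. The shorter run GGAA does occur in the Cyp4f13 stretch, close to its start. A match, or the lack of one, is a description of the letters only. GAGGAA on either strand was in 23.3% of all promoters in the table and in 9 of the 41 members, among them Cyp1b1 at 51 bases before its start. A GC box (GGGCGG on either strand), present in 32.7% of all promoters, was found in all 3 Cyp4f promoters and overlapped none of the marked sites.

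Cyp4f18, known from neutrophils and other myeloid cells as an enzyme that hydroxylates leukotriene B4, was 45.3, 27.3, 18.3, 20.6 and 16.3 in sham 1, 5, 8, 10 and 11. In cPTAA the lowest was 114, the median 256 and the highest 496. Every cPTAA library lay above every sham library, and cPTAA 7 was the lowest of the cPTAA libraries. The difference was 3.38 ± 0.34 (adjusted p = 1.14e-05), which is 10.4-fold higher. cPTAA 7 also had the lowest macrophage marker sum in its group (38423, against 58089 to 71726 in the others), and the part of macrophages in the result was not tested. Cyp4f18 kept its call in all 23 alternatives, with log2 differences of 3.05 to 3.60.

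Cyp4f16 was 167, 166, 204, 176 and 165 in sham 1, 5, 8, 10 and 11. The cPTAA libraries lay between 284 and 447, with a median of 363. The groups did not overlap, with all cPTAA libraries above sham 8, the highest of the sham libraries. The difference was 1.09 ± 0.14 (adjusted p = 6.45e-05), which is 2.13-fold higher.

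Cyp4f13 was 537, 430, 440, 535 and 568 in sham 1, 5, 8, 10 and 11, and 287 to 415 (median 369) in cPTAA. All cPTAA libraries lay below all sham libraries, and cPTAA 6 came closest. The difference was -0.50 ± 0.13 (adjusted p = 0.0131). Without sham 8 and 11 together the adjusted p was 0.0527, and over all alternatives it ran from 0.00118 to 0.465. Of the other Cyp4f genes tested, Cyp4f17 was 148 ± 25.1 in cPTAA (SD, n = 7) and 178 ± 21.9 in sham (SD, n = 5), a difference of -0.27 ± 0.17 (adjusted p = 0.259). Cyp4f14 (-1.06 ± 0.46, adjusted p = 0.11) and Cyp4f15 (-1.66 ± 1.03, adjusted p = 0.271) did not pass either. The order of the cluster on chromosome 17 was Cyp4f39, Cyp4f17, Cyp4f16, Cyp4f37, Cyp4f40, Cyp4f15, Cyp4f14 and Cyp4f13, so the gene that rose had untested or uncalled neighbours on both sides. These genes are close copies, so reads could have been split between them.

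Cyp4v3, the relative of the human gene mutated in a crystalline retinal dystrophy, differed by -0.13 ± 0.12 (adjusted p = 0.502) and was 432 to 587 in cPTAA and 481 to 620 in sham. The difference was of the size of its SE.

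**Figure D3:**
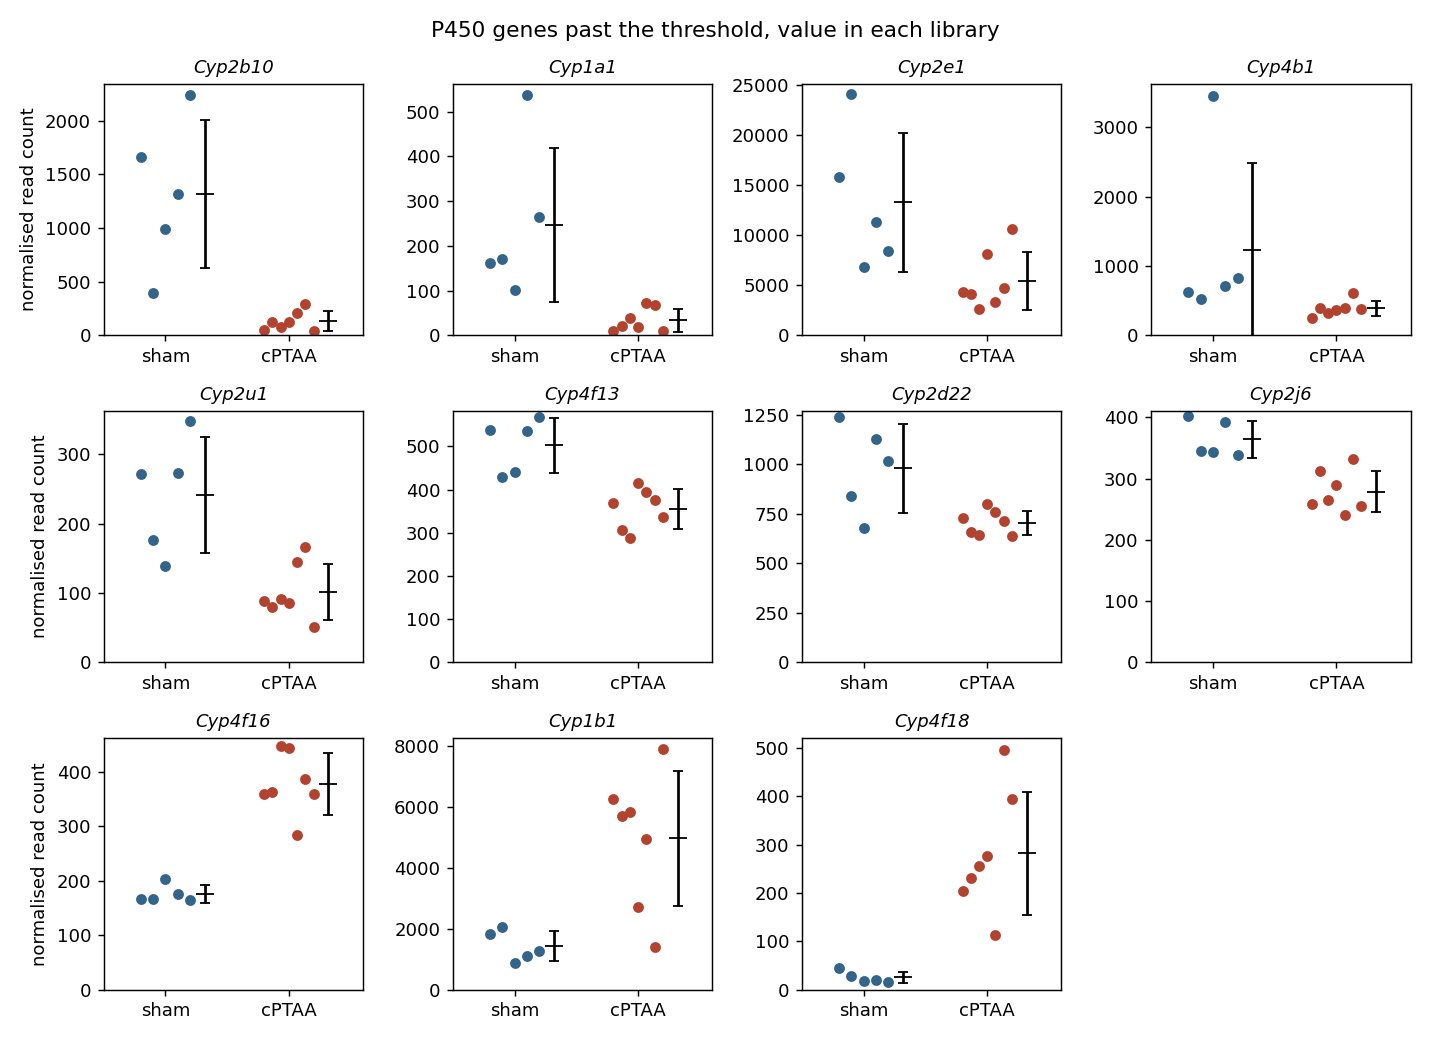
Normalised read count of the 11 P450 genes past the threshold, with 1 point a library, sham in blue and cPTAA in red, and the mean with bars of 1 SD beside each group (the lower bar of Cyp4b1 in sham ends below 0 and is cut by the axis). Cyp4f18 is 114 or more in every cPTAA library and at most 45.3 in sham, and Cyp2b10 is at most 291 in cPTAA and at least 397 in sham.

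A group of members was high in sham 8. Of the 53 members, 16 had their highest value there, and 13 were more than 3-fold above the next library, 6 of them tested and 7 below the filter. Cyp2f2, the enzyme of airway club cells that oxidises naphthalene, was 136, 158, 36588, 112 and 1757 in sham 1, 5, 8, 10 and 11. In cPTAA it ran from 220 through a median of 707 to 1004. Sham 8 and sham 11 lay above every cPTAA library, and sham 1, 5 and 10 below every one. Over all libraries the difference was -0.13 ± 1.13 (adjusted p = 0.952). By edgeR on the recovered reads it was -3.50 (adjusted p = 0.041). The sign turned to 0.13 without cPTAA 7, to 0.21 without sham 11 and to 1.31 without sham 8.

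The club cell marker Scgb1a1 was 40496 in sham 8 and 3550 in sham 11, at most 7.60 in the other sham libraries, and 0 in 4 of 7 cPTAA libraries and at most 50.8 in the rest. Of 9 lung epithelium markers tested, 1 (Napsa) was higher in cPTAA and 0 lower (limma, 1 at an unadjusted p under 0.05), and Sftpa1 and Nkx2-1 were at 0 in every cPTAA library. Cyp2f2 per unit of Scgb1a1 was 0.904 in sham 8 and 0.495 in sham 11. Without sham 8 and 11, a choice made after seeing the data, the mean of Cyp2f2 in sham was 135 ± 23.0 (SD, n = 3). All 7 cPTAA libraries lay above it and above each of the 3, and the difference was 2.23 ± 0.37 (limma adjusted p = 0.00115). Sham 8 and 11 had the highest Cyp2f2 of the sham libraries, so leaving them out fixed the direction and the separation. That p-value therefore cannot be read as a test of a rise. Over all alternatives of Cyp2f2 the adjusted p ran from 0.00115 to 0.999. The part of lung tissue in these values was not tested.

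Cyp2a5, a coumarin hydroxylase of liver and airway, was 1.05, 0.974, 12518, 0 and 697 in sham 1, 5, 8, 10 and 11. The median in cPTAA was 6.29, the lowest value 0 and the highest 33.2. Only sham 8 and sham 11 had values above 100, and the difference was -2.70 ± 2.02 (adjusted p = 0.37). Its close copy Cyp2a4 was 10.2 in sham 8 and 0.976 or less elsewhere, and reads could have been split between both.

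Cyp2s1, an epithelial P450, was 47.4, 79.9, 1221, 23.9 and 140 in sham 1, 5, 8, 10 and 11, and 11.7 to 47.3 (median 33.7) in cPTAA. All sham libraries other than sham 10 lay above every cPTAA library, sham 1 by a small margin. The difference was -2.11 ± 0.76 (adjusted p = 0.057) by limma and passed by edgeR (-3.39, adjusted p = 0.00817) and DESeq2 (-3.39, adjusted p = 8.36e-04). It passed without sham 10 (-2.65, adjusted p = 0.0232), and without sham 8 it was -1.24 (adjusted p = 0.108). Over all its alternatives the adjusted p ran from 8.36e-04 to 0.327.

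Cyp4b1, which oxidises fatty acids and inhaled toxicants and is abundant in lung, passed the threshold. It was 618, 528, 3455, 714 and 826 in sham 1, 5, 8, 10 and 11, and 252 to 610 (median 386) in cPTAA. Apart from cPTAA 9, at 610, all cPTAA libraries lay below all sham libraries. The difference was -1.29 ± 0.38 (adjusted p = 0.0212). Without sham 8 it was -0.81 ± 0.21 (adjusted p = 0.0109), and without sham 8 and 11 it was -0.71 (adjusted p = 0.0469). Over all its alternatives the adjusted p ran from 0.00176 to 0.188.

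**Figure D4:**
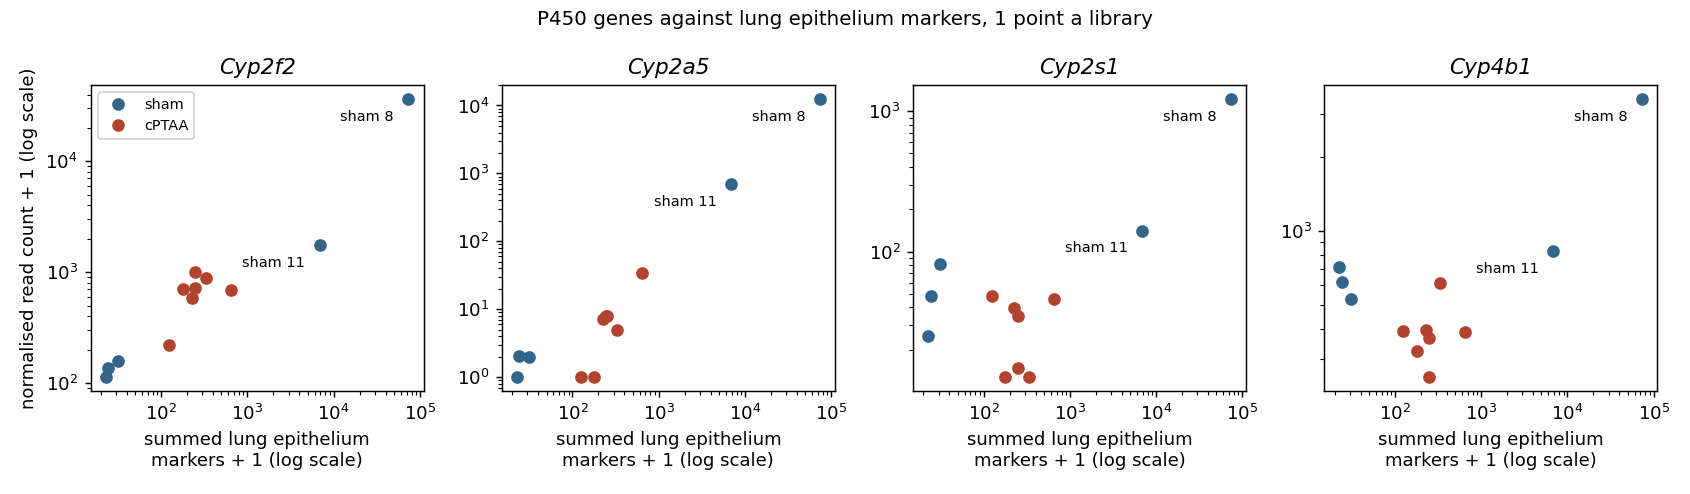
Normalised read count + 1 of Cyp2f2, Cyp2a5, Cyp2s1 and Cyp4b1 against the summed lung epithelium markers + 1, both on log axes, with 1 point a library. Sham 8 (marker sum 73662) and sham 11 (6881) lie to the right, and the 3 other sham libraries (21.7 to 30.2) lie to the left of all cPTAA libraries (124 to 644). The cPTAA sums are mostly Napsa (97.1 to 296) and Epcam (9.66 to 245), so the gap to those 3 sham libraries rests on few markers.

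The remaining members above 3-fold in sham 8 were chosen for their values. Cyp4f15 was 160 in sham 8 and at most 4.66 elsewhere. Cyp4a12b was 761 in sham 8, 43.1 in sham 11, and 9.49 or less elsewhere. Cyp4a12a, its close copy and in male mice a main maker of vasoconstrictor arachidonic acid products in kidney, was 12.9 in cPTAA 2, 3.69 in cPTAA 12, 1.02 in sham 8 and 0 elsewhere, and was not tested. Cyp4f39 (27.5 in sham 8), Cyp4a32 (15.3), Cyp4x1 (5.09), Cyp2b19 (5.09), Cyp4f40 (5.09) and Cyp2a12 (3.06) were lower still, and the last 4 were listed at 0 in every other library. On chromosome 7 the order was Cyp2s1, Cyp2b10, Cyp2b9, Cyp2a4, Cyp2b19, Cyp2g1, Cyp2a5, Cyp2a12, Cyp2f2 and Cyp2t4, so the 6 family 2 genes that were above 3-fold in sham 8 all lay in the cluster that also holds Cyp2b10, which was highest in sham 11.

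The called members were also set against the brown adipocyte markers, and Cyp2b10 was the one that passed by both measures used. Within the 7 cPTAA libraries, 11 relations were computed between the called members and the brown adipocyte score, the mean log2(value + 1) of its 15 markers, after the data had been seen. Exact permutation p over pairings, two-sided, was adjusted over the 11. For Cyp2b10, Pearson's r was 0.88 (permutation p = 0.00278, adjusted 0.0306) and Spearman's rho 0.964 (permutation p = 0.00278, adjusted 0.0306), and r was 0.806 without cPTAA 9 and 12, the libraries farthest from the median score. For Cyp1a1, r was 0.784 (permutation p = 0.0204, adjusted 0.0749) and rho 0.929 (permutation p = 0.00675, adjusted 0.0371), with r = 0.698 without those libraries. For Cyp2u1, r was 0.888 (permutation p = 0.00813, adjusted 0.0447) and rho 0.75 (permutation p = 0.0663, adjusted 0.182), and r fell to 0.524 without those libraries, so the relation by r rested on them in part. The other 8 called members had adjusted p of 0.176 or more for both measures. Among them Cyp2e1, also a lower member, had negative values (r -0.657, permutation p = 0.113, adjusted 0.258, and rho -0.464, permutation p = 0.302, adjusted 0.554). Cyp1b1 was the only one of the 8 with an unadjusted permutation p under the threshold (rho -0.786, permutation p = 0.048, r 0.187 without those libraries).

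When the brown adipocyte score was added to the fit as a covariate, 1 member remained higher, Cyp4f18 (3.25 ± 0.66, adjusted p = 0.0303), and 0 were lower (limma, 8 at an unadjusted p under 0.05). Those 8 were Cyp2e1 and Cyp4b1, called lower without the covariate, and Cyp2a5, Cyp2s1, Cyp2t4, Cyp3a13, Cyp4a32 and Cyp4f15, not called without it. With the covariate, Cyp4f16 was 0.97 ± 0.26 (adjusted p = 0.0762), Cyp2b10 -1.16 ± 0.68 (adjusted p = 0.328), Cyp1a1 -0.45 ± 0.69 (adjusted p = 0.722) and Cyp1b1 0.69 ± 0.64 (adjusted p = 0.543). Cyp2u1 changed sign, to 0.16 ± 0.36 (adjusted p = 0.817). Cyp2e1 (-2.01 ± 0.66, adjusted p = 0.121) and Cyp4b1 (-1.73 ± 0.71, adjusted p = 0.188) had larger negative values than without the covariate but wider errors. The score separates the groups, so this fit widened the errors in general: the median SE over all genes was 0.522 against 0.302, and 253 genes were higher and 73 lower. Without the covariate, Cyp1a1, Cyp1b1, Cyp2b10, Cyp2u1, Cyp4b1 and Cyp4f16 kept their calls in every other alternative that gave a value. Over all alternatives the adjusted p of Cyp2b10 ran from 6.87e-11 to 0.328, that of Cyp1a1 from 5.91e-07 to 0.722, that of Cyp1b1 from 5.13e-06 to 0.543, that of Cyp2u1 from 3.80e-04 to 0.817 and that of Cyp4f16 from 1.79e-11 to 0.0762.

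**Figure D5:**
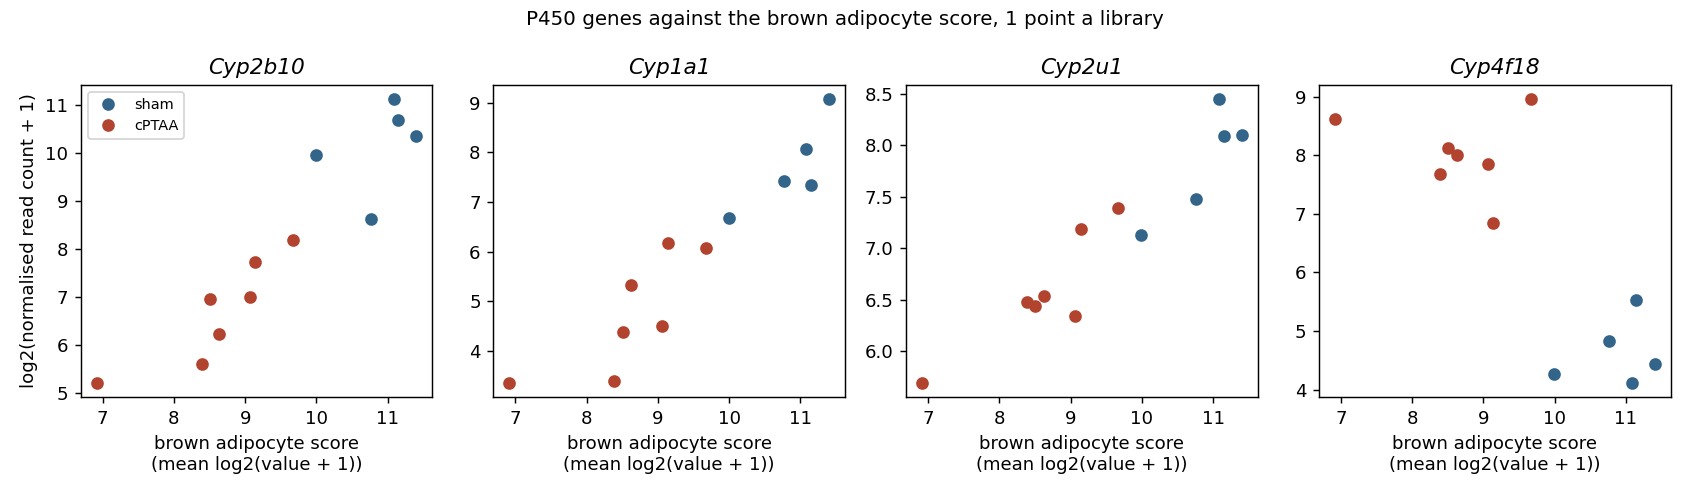
Log2(normalised read count + 1) of Cyp2b10, Cyp1a1, Cyp2u1 and Cyp4f18 against the brown adipocyte score (mean log2(value + 1) of 15 markers), with 1 point a library. Within the 7 cPTAA libraries Pearson's r is 0.88 for Cyp2b10, 0.784 for Cyp1a1, 0.888 for Cyp2u1 and -0.186 for Cyp4f18.

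The other named members did not pass. Cyp2r1, which hydroxylates vitamin D in its activation, was 28.4 ± 8.23 in cPTAA (SD, n = 7) and 23.0 ± 4.14 in sham (SD, n = 5), a difference of 0.27 ± 0.27 (adjusted p = 0.518). Cyp2j9, a relative of Cyp2j6, was 62.6 ± 10.2 and 69.9 ± 16.2, a difference of -0.15 ± 0.21 (adjusted p = 0.666). The arachidonic acid epoxygenase Cyp2c23, also known as Cyp2c44, was at most 3.45 in cPTAA and 9.49 in sham, where sham 1 was highest (-0.52 ± 0.64, adjusted p = 0.601). Cyp3a13 was 0.98 to 7.38 in cPTAA and 2.11, 11.7, 53.0, 4.34 and 31.4 in sham 1, 5, 8, 10 and 11, a difference of -1.55 ± 0.66 (adjusted p = 0.106). It passed by DESeq2 and without sham 1. Without sham 8 the limma difference was -1.04 ± 0.62 (adjusted p = 0.255), and without sham 8 and 11 together -0.43 ± 0.59 (adjusted p = 0.667). The other tested members, Cyp2ab1, Cyp2d9, Cyp2t4, Cyp4a14 and Cyp4a32, had adjusted p from 0.277 to 0.744.

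Of the 26 members below the filter, 21 had a highest value under 10 in any library. These low members included 5 of the 6 Cyp3a genes and Cyp2c67, Cyp2c70 and Cyp4a10, genes known mainly from liver. Of 9 hepatocyte markers tested, 3 were higher in cPTAA, Ahsg (adjusted p = 3.75e-04, without overlap), Hpx (adjusted p = 0.0167) and Cps1 (adjusted p = 0.0168), and 1, Tat, was lower. Alb did not pass, was at most 69.0 and was at 0 in 3 cPTAA and 4 sham libraries. The summed hepatocyte list, which includes the widely expressed Trf (mean 5274 in sham), was 4167 to 7995. The number of members with at least 1 read was 25 to 34 in cPTAA and 26 to 36 in sham.

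The electron donors and partners of P450 enzymes were given by a list of 9 genes, of which 1 rose and 3 fell. Over all genes tested, 12.9% were higher and 11.1% lower, shares that the haem synthesis counts below are also set against. Por, the reductase that passes electrons to all microsomal P450 enzymes, was 3493, 3740, 4806, 4195 and 4665 in sham 1, 5, 8, 10 and 11. In cPTAA it ran from 1289 through a median of 1623 to 2564. All cPTAA libraries lay below all sham libraries, and the difference was -1.29 ± 0.17 (adjusted p = 6.46e-05). Cyb5r2 fell by 2.08 ± 0.57 and Pgrmc2 by 0.41 ± 0.11, whereas Cyb5r3, which reduces cytochrome b5, rose by 0.92 ± 0.22. Pgrmc2 lost its call without sham 10. In haem synthesis, 1 of 12 genes fell, the mitochondrial carrier Slc25a39 (-1.07 ± 0.28, adjusted p = 0.0122), and 0 rose. Leaving out single libraries raised the number lower to 7 (cPTAA 9), 3 (cPTAA 6 or sham 8) or 2 (cPTAA 7).

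Of the receptors that control P450 genes, 5 of 13 tested were lower and 2 higher, against 11.1% lower and 12.9% higher over all genes tested. Ppara, the fatty acid receptor that induces Cyp4a genes in liver and also a brown adipocyte marker in the list used here, fell by 3.31 ± 0.30 (adjusted p = 5.38e-06), from 1060 ± 328 in sham to 109 ± 44.8 in cPTAA. Pparg (-1.17 ± 0.23), Esrra (-1.45 ± 0.28), Nr1h3 (-0.77 ± 0.17) and Rxrg (-1.71 ± 0.46) were also lower. The vitamin D receptor Vdr (1.62 ± 0.41) and the bile acid receptor Nr1h4 (2.27 ± 0.58) were higher, Nr1h4 at a mean of only 12.2 in cPTAA. By edgeR 1 receptor of the list was higher. Nr1i3, the receptor known to induce Cyp2b10, was near the detection limit (mean 1.20 in cPTAA and 0.39 in sham) and did not pass.

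The genes around the eicosanoid substrates and products of P450 enzymes are given list by list, to be read against the 12.9% of all genes tested that were higher and the 11.1% that were lower. In leukotriene synthesis, 4 of 12 tested rose and 0 fell. Alox5ap, which presents arachidonic acid to 5-lipoxygenase, was 157, 125, 116, 80.3 and 122 in sham 1, 5, 8, 10 and 11 and 374 to 1075 in cPTAA, a difference of 2.50 ± 0.24 (adjusted p = 8.33e-06). Alox5 itself rose by 1.78 ± 0.26, Dpep2 by 2.54 ± 0.52 and Ggt5 by 0.85 ± 0.28. Ggt5 was close to the threshold (limma adjusted p = 0.0413) and overlapped between groups. By edgeR 3 genes of this list were higher. Macrophage marker sums were also higher in cPTAA, and their part in the result was not tested. Within cPTAA, Alox5ap and Cyp4f18 were both highest in cPTAA 9 (1075 and 496), whose macrophage sum, 61981, was below that of cPTAA 2, 4, 6 and 12. Both were lowest in cPTAA 7 (374 and 114), whose macrophage sum, 38423, was also the lowest. No relation to the macrophage sum was computed.

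In prostanoid synthesis, 4 of 13 rose and 3 fell. Hpgds (2.77 ± 0.36), the thromboxane synthase Tbxas1 (1.91 ± 0.29), itself a P450 of another family, the inducible cyclooxygenase Ptgs2 (1.23 ± 0.26) and Hpgd (0.92 ± 0.31) were higher. Hpgd was close to the threshold (limma adjusted p = 0.0409) and overlapped between groups. By edgeR 3 genes of the prostanoid list were higher. Ptgr2 (-1.08 ± 0.22), Ptges2 (-1.03 ± 0.25) and Cbr1 (-0.54 ± 0.18) were lower. Prostacyclin synthase, Ptgis, was abundant at 8461 ± 2299 in cPTAA and 9059 ± 925 in sham and did not pass (-0.14 ± 0.19, adjusted p = 0.651). Among eicosanoid receptors, 5 of 13 rose and 2 fell. The leukotriene receptors Cysltr1 (2.05 ± 0.30), Cysltr2 (2.21 ± 0.50) and Ltb4r1 (1.91 ± 0.44) and the prostanoid receptors Ptgir (1.26 ± 0.20) and Ptger4 (1.04 ± 0.20) were higher, and Ptger3 (-0.87 ± 0.23) and Ptgfr (-1.34 ± 0.38) were lower. Ptgfr lost its call without sham 5. In arachidonate release, 3 of 13 rose, led by the lysosomal phospholipase Pla2g15 (1.03 ± 0.17), with Pla2g4c (1.37 ± 0.41) and Pla2g4a (0.52 ± 0.18), and 2 fell, Plaat3 (-0.78 ± 0.23) and Pla2g12a (-0.92 ± 0.30). The calls of this list other than that of Pla2g15 were each lost on leaving out at least 1 single library: sham 10 ended all 4, and sham 1 and sham 5 each ended those of Pla2g4a, Plaat3 and Pla2g12a. Cbr1 kept its call only without cPTAA 6 or cPTAA 9 among the single libraries left out.

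Of the epoxide hydrolases, which open the epoxides made by P450 enzymes, 1 of 4 passed. Ephx2, the soluble enzyme that removes arachidonic acid epoxides, was 4668, 4617, 2110, 5408 and 5034 in sham 1, 5, 8, 10 and 11. In cPTAA it ran from 1494 through a median of 1896 to 3750. Sham 8 lay within the cPTAA range and the other sham libraries above it, and the difference was -1.02 ± 0.26 (adjusted p = 0.0111). Ephx1, the microsomal enzyme, was 0.37 ± 0.16 higher without passing (adjusted p = 0.116).

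Other drug-metabolising families were counted in the same way. Their counts are to be read against the 12.9% of all genes tested that were higher and the 11.1% that were lower. Among the flavin monooxygenases, Fmo1 (-1.64 ± 0.22) and Fmo5 (-0.67 ± 0.14) fell without overlap between groups, and 0 rose. Of 21 glutathione transferases tested, Gstz1 (-0.91 ± 0.19), Gsto2 (-1.47 ± 0.39), Gsta4 (-1.76 ± 0.48) and Mgst1 (-0.66 ± 0.18) fell and 0 rose. In the P450 genes of other families, 5 of 15 rose and 0 fell. Besides Tbxas1, these were the oxysterol hydroxylase Cyp7b1 (2.35 ± 0.38), the retinoic acid hydroxylase Cyp26a1 (3.72 ± 0.83), the orphan Cyp20a1 (0.53 ± 0.14) and Cyp8b1 (1.61 ± 0.48). Over all pathway lists 25 genes were higher and 25 lower of 138 tested, and without cPTAA 9 the number lower was 38. In the fit with the brown adipocyte covariate, 1 gene remained higher (Alox5ap) and 1 lower (Ppara, itself part of that score). The counts of 0 above are limma's. At an unadjusted p under 0.05, 1 leukotriene gene and 1 P450 gene of another family were lower, and 0 haem synthesis genes, 0 flavin monooxygenases and 0 glutathione transferases were higher. By edgeR these counts were all 0, and by DESeq2 1 leukotriene gene was lower and the others were 0. Hpgd, Ggt5, Cysltr2, Ltb4r1, Nr1h3, Rxrg, Cyp20a1, Cyp8b1 and Mgst1 lie outside the rule for named genes and were chosen after their values were seen.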

How the data were processed

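The deposited table gives, per gene and library, a signal that is never negative, which the authors made from RNA captured on oligo-dT beads, per the labels' protocols. The submitters' processing notes name HISAT2 2.0.5, featureCounts 1.5.0-p3, StringTie and the build GRCm39. Their roles, the scaling, filters and the strand setting are not given in the sources used here, so overlapping genes on opposite strands cannot be told apart. Division of the deposited signal by 1 factor per library gave whole reads for 100% of values, within 0.02 reads (largest deviation 0.000311). The unit is called the normalised read count in the text.

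Groups and library numbers came from the sample titles. As the design had it for normalised values, log2(value + 1) was tested two-sided in limma 3.58.1 under R 4.3.3, allowing the variance to follow the mean. The 21415 genes that reached a value of 1 in 5 libraries or more were tested, with Benjamini-Hochberg adjustment over them and a threshold of 0.05. This scale understates the change of low genes. Alternatives were edgeR 4.0.16 (quasi-likelihood, which called 2622 genes higher and 2261 lower) and DESeq2 1.42.0 on the recovered reads, voom with sample weights, TMM and library-total scaling, no filter or a minimum of 5, a pseudocount of 0.1, the brown adipocyte score as a covariate, and leaving out each library. Leaving out libraries together and the relations to the score were added after seeing the data. The calculations were tested on simulated data.

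Named genes are every member past the threshold, a panel of 21 members, the 5 members with the highest mean, and from each of 12 pathway lists the 3 genes with the smallest p in each direction. Other members named were chosen after their values were seen. Members, lists and tests were chosen with earlier results of these data known. A list is described by its counts, without a set test. The result of 1 gene of the pathway lists is not reported here, though it is counted in the totals over the lists. Exon lengths were matched by symbol to GENCODE M21 (52 of 53 members) and promoters to RefSeq (41 of 53). Relations used Python 3.11.15 and NumPy 2.4.6.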

Additional observations from a re-analysis of the deposited data

Results flagged for a closer look

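For the 22 named members, the values in cPTAA and in sham were each examined for a library far from the others, which gave 43 sets of values that were not all equal. In 11 sets the gap between the highest or lowest library and its nearest neighbour exceeded Dixon's 95% limit for its share of the range. Chance gives about 1 set in 20 only where values are normally distributed, and these values were not transformed. The sets share libraries, and 7 of the 11 are due to sham 8. A set with only 1 library above 0, as for Cyp4x1 and Cyp4a12a in sham, exceeds the limit whatever the value. Cyp2a5 was named only for its high mean, which sham 8 largely makes.

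In sham 8 these were Cyp2f2 at 36588 (next highest sham 1757), Cyp2a5 at 12518 (697), Cyp4b1 at 3455 (826), Cyp2s1 at 1221 (140), Cyp4f16 at 204 (176), Cyp4x1 at 5.09 (0) and Cyp4a12a at 1.02 (0). The last pair are single-digit numbers of reads. Lung epithelium markers summed to 73662 in the same library, and their part in these values was not tested. In sham 11, Cyp2r1 was 30.3, against 22.1 in the next library. In cPTAA, Cyp4b1 was 610 in cPTAA 9 (392 in the next), Cyp2a5 33.2 in cPTAA 12 (6.90) and Cyp4a12a 12.9 in cPTAA 2 (3.69).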

How the results depend on the processing

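No paired analysis was possible because the cPTAA and sham titles share no replicate number. Over 23 alternatives, the number of P450 members higher was 3 (4 without sham 8 and 11 together) and the number lower 6 to 10, except when the brown adipocyte score entered as a covariate, where P450 members higher were 1 and P450 members lower 0. That fit widens the errors, and the cause of the lost calls was not tested. It also left 1 of the genes of the pathway lists higher and 1 of the genes of the pathway lists lower, and turned the sign of Cyp2u1 (0.16), Pla2g12a (0.29), Ptges2 (0.21), Slc25a39 (0.25), Ahr (-0.17) and Vdr (-0.10). The genes of the pathway lists lower, 25, became 46 with voom, 45 without cPTAA 6, 7 and 9 and sham 8 together, and 20 to 38 on leaving out single libraries. Cyp2f2 turned to 0.70 with voom, to 2.23 when sham 8 and 11 were dropped and to 1.52 when cPTAA 6, 7 and 9 and sham 8 were dropped, and ran from -0.78 to 1.31 on leaving out single libraries. Cyp2a5 turned to 1.64 without sham 8 and 11, and Cyp2j9 to 0.034 on dropping cPTAA 6, 7 and 9 and sham 8. Over all genes, 2754 higher and 2374 lower became 3359 and 1830 with library totals and 3406 and 3552 with voom, and 253 and 73 with the covariate, and without sham 8 and 11 there were 1574 lower. The causes were not tested. For 21 of the 26 members below the filter the highest value was under 10, and with no filter, where all 53 were tested, 3 were higher and 6 lower.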
